A study of Homo sapiens with 15 samples.

Results

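Alveolar epithelium is made of 2 cell types, and 10 genes that mark them were followed here through every labelled group of an RNA-seq study of A549 cells, a human lung adenocarcinoma line that is widely used as a model of the type II cell. The genes were taken by symbol from the 43388 genes in the count files: 5 type II markers (NKX2-1, ABCA3, LPCAT1, NAPSA and SLC34A2) and 5 type I markers (AQP5, AGER, HOPX, CAV1 and PDPN). Type II cells are cuboidal cells that make surfactant, store it in lamellar bodies and secrete it, and they act as progenitors after injury. Type I cells are thin, wide cells that form the gas exchange surface and are rich in caveolae, the flask-shaped pits of the cell membrane. When a type II cell becomes a type I cell it loses surfactant genes and gains type I genes, and oxygen and retinoids are both known to act on alveolar growth.

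The cells were A549 from 1 line, with no change in genotype. At each oxygen level (95% O2, hyperoxia, or 21% O2, normoxia, both for 72 h) there were 3 libraries that had received 1e-05 mM all-trans retinoic acid (ATRA) for 24 h beforehand and 2 libraries that had received the ethanol vehicle. A further 2 libraries at each oxygen level carry labels that name neither ATRA nor vehicle, and they are called untreated here. The protocol text shared by all samples names ATRA or vehicle only, so these libraries may have received vehicle, which the labels leave unsaid. The labels of 1 more library contradict each other, so it entered no comparison. Nothing in the labels says whether libraries of a group came from separate cultures, so p-values measure the spread between these libraries, which may be technical.

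Over the 14 labelled libraries, gene counts came to between 2642377 and 5605072 per library, and 12657 to 20108 genes had a count. A count of 0 allows up to 3 counts, or between 0.535 and 1.14 CPM (the count scaled to the size of its library, in the usual unit), which covers counting error only. In 4 libraries unusually few genes had exactly 1 count: 286 in hyperoxia untreated replicate 1, 381 in hyperoxia ATRA replicate 1, 592 in hyperoxia ATRA replicate 2 and 689 in normoxia ATRA replicate 2, against 1041 to 1711 in the other 10. Calls that use any of these 4 libraries are therefore also given without them. That leaves 1 library in hyperoxia ATRA and 1 in hyperoxia untreated. Adjusted p-values from such fits therefore take their spread from the other groups. Replicates of a group differed by more than counting noise in all 10 pairs (chi-square of 3.98 to 31.5 per degree of freedom).

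Upstream of the genes, the sequences around the transcription start are shown for the genes on which the results turn: ABCA3 and CAV1, which differed with oxygen, LPCAT1, which was expressed at a steady level, AGER, which had few counts, and AQP5, which had none. Each is the RefSeq promoter window of GRCh38.p14, from 250 bases before to 50 bases after the start, written 5′ to 3′ on the strand of the gene. All 10 of the genes matched a window. Capitals mark the GC box, the letters GGGCGG on either strand (CCGCCC when read on the other), which were found in 44.95% of all 35116 windows of this length.

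ABCA3, chr16:2340679-2340978, minus strand: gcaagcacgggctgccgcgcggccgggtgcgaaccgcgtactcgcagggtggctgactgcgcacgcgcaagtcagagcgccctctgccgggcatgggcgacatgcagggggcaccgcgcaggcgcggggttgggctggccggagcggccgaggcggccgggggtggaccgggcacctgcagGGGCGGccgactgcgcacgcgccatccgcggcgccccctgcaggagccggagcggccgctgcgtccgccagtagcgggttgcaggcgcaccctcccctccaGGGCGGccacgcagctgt
LPCAT1, chr5:1523911-1524210, minus strand: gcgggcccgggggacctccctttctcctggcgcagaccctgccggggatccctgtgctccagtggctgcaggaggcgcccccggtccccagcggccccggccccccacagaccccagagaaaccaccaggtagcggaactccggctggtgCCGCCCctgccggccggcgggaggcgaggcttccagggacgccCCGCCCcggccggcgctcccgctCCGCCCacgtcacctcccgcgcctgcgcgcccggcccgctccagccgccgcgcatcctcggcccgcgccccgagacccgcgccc
CAV1, chr7:116524759-116525058, plus strand: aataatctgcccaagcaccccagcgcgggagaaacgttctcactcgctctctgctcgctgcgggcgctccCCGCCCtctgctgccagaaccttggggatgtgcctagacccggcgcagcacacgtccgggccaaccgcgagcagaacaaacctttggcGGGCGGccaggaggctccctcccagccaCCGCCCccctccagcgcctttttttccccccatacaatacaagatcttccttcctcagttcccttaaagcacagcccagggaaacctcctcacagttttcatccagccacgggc
AGER, chr6:32184204-32184503, minus strand: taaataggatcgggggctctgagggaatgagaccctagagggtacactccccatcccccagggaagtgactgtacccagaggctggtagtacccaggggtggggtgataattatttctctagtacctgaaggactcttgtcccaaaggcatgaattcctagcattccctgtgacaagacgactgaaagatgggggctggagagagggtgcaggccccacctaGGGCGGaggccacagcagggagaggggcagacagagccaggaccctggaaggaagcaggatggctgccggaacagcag
AQP5, chr12:49961622-49961921, plus strand: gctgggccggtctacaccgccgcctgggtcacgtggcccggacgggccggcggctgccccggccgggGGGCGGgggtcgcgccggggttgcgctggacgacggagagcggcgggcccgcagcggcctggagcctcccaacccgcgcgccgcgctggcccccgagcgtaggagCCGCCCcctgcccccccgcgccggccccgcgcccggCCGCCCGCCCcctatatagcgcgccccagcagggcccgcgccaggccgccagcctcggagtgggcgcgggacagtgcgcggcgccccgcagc

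The ABCA3 window held 42 CpG dinucleotides and 2 GC boxes, and the LPCAT1 window held 38 CpG and 3 GC boxes, against a median of 14 CpG over all windows. AQP5, with no count in any labelled library, had the most CpG of the 10 windows, 49, and 4 GC boxes, of which one pair overlaps. The AGER window was the poorest in CpG, with 4. The CAV1 window lay between them, with 19 CpG and 3 GC boxes. Neither the TATA box (TATAAA, in 11.53% of all windows) nor the letters AGGTCA, an element bound by nuclear receptors (13.83%), was found on either strand of these 5 windows. Among the other 5, PDPN held TATAAA and HOPX held AGGTCA.

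A549 cells expressed 3 of the 10 markers at a clear level, of which 2 mark type II and 1 marks type I cells. CAV1, which encodes caveolin-1, the main coat protein of caveolae, was the most abundant, with a mean of 85.9 CPM per kilobase of exon over the 14 libraries, above 98.5% of the 19722 detected genes with a known length. ABCA3, the lipid transporter that fills lamellar bodies with phospholipid, stood at 12.2 CPM per kilobase, above 82.7% of those genes. LPCAT1, an acyltransferase that makes the saturated phosphatidylcholine of surfactant, stood at 9.42 CPM per kilobase, above 77.9%. On this scale CAV1, a type I marker, exceeded the type II marker ABCA3 in every library, by between 5.25 and 11.8 times. ABCA3 and LPCAT1 changed places, since their ratio ran from 0.658 to 2.26.

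The remaining 7 markers were scarce or silent. AQP5, the water channel of type I cells, HOPX, a homeodomain protein of type I cells, and PDPN, podoplanin of the type I surface, had 0 counts in all 14 libraries, so each was at or under the level that 3 counts allow. NKX2-1, the transcription factor that sets lung epithelial identity and drives surfactant genes, had 2 counts, both in normoxia vehicle replicate 2. SLC34A2, the phosphate transporter of type II cells, had 4 counts, 2 in normoxia untreated replicate 1 and 2 in normoxia vehicle replicate 2. These 5 genes never exceeded 3 counts in a library. SFTA3 lies over 3160 bases of NKX2-1 on the same strand, and LOC105369764 over 1181 bases of AQP5 on the opposite one. Reads shared by such genes may have been counted for neither, which was not tested. NAPSA, the aspartic protease that processes surfactant protein B, had 65 counts in 10 of the 14 libraries. AGER, the receptor for advanced glycation end products and the most used type I marker, had 91 counts in 12 of the 14 libraries.

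The surfactant proteins and the factors around NKX2-1 set these levels in context. Of the 5 surfactant protein genes, SFTPA1 and SFTPA2 had no counts, while SFTPB had 12, SFTPC 3 and SFTPD 10 counts in all 14 libraries together. The SFTPC counts were in 1 normoxia ATRA library. Those of SFTPD were in 1 normoxia ATRA and 1 hyperoxia ATRA library, at most 5 in each. SFTPB had counts in 4 libraries, with and without ATRA. None of the 5 passed the filter on low counts. Other type II genes at 0 counts were SFTA2, SFTA3 and KCNJ15, and LAMP3, a lamellar body protein, had 65 counts. CYP4B1 was at 0 among the other type I genes. GRHL2, an epithelial transcription factor, was at 0 too, while FOXA2 averaged 44.7 ± 1.76 CPM (SD, n = 2) in normoxia vehicle. The labels name an alveolar epithelial origin. SFTPC, NKX2-1 and SLC34A2 of the type II genes and AQP5, HOPX and PDPN of the type I genes were at or near 0. AGER and NAPSA had few counts, while ABCA3, LPCAT1 and CAV1 were at a clear level.

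Hyperoxia was first compared with normoxia, which asks how high oxygen moves alveolar marker expression. ABCA3 and CAV1 were both higher in hyperoxia, a type II and a type I marker together, while LPCAT1 and AGER did not pass the test. In the libraries without ATRA the ABCA3 level was about doubled, and the CAV1 level was between 1.36 and 1.58 times as high in each of the 3 treatments. In bulk RNA a change in cells of a type cannot be told apart from a change in RNA per cell. Reads in no gene moved with oxygen as well: there were 2.07 to 2.18 of them per gene count in the 7 hyperoxia libraries and 2.24 to 2.43 in the 7 normoxia libraries, without overlap, and their part in the oxygen results was not tested.

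For ABCA3, the hyperoxia values were 121 and 153 CPM untreated, 127 and 118 CPM with vehicle, and 100.1, 107 and 113 CPM with ATRA. The normoxia values were 49.7 and 76.5 CPM untreated, 53.2 and 75.9 CPM with vehicle, and 89.7, 61.2 and 88 CPM with ATRA. All 7 hyperoxia libraries thus lay above all 7 normoxia libraries, with medians of 118 and 75.9 CPM, a ratio of 1.56. Of 15339 genes tested, 6.34% had every hyperoxia library above every normoxia library. Ordered by group mean, ABCA3 ran from normoxia untreated (63.1 ± 18.9 CPM, SD, n = 2) and normoxia vehicle (64.5 ± 16.1, n = 2) through normoxia ATRA (79.6 ± 16, n = 3), hyperoxia ATRA (106 ± 6.29, n = 3) and hyperoxia vehicle (123 ± 6.27, n = 2) to hyperoxia untreated (137 ± 22.4, n = 2). Neighbours in this order overlapped except at 2 steps, from normoxia ATRA to hyperoxia ATRA and from hyperoxia ATRA to hyperoxia vehicle.

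**Figure D1:**
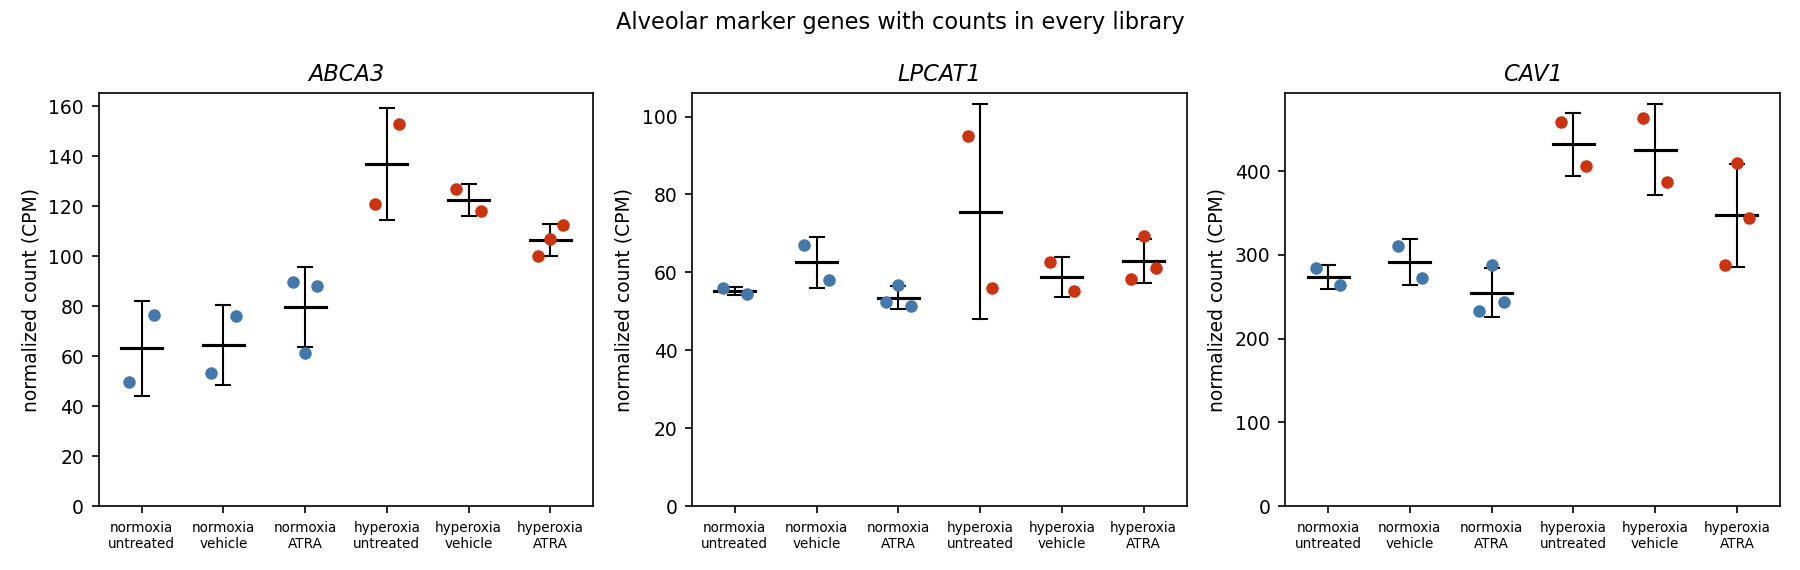
Normalized counts (CPM, vertical axis, linear from 0) of ABCA3, LPCAT1 and CAV1 in each of 14 libraries, by group. Points are libraries, blue for normoxia and red for hyperoxia, horizontal lines are group means and bars are 1 SD. ABCA3 runs from 49.7 to 89.7 CPM in normoxia and from 100.1 to 153 CPM in hyperoxia without overlap, and 1 LPCAT1 library stands at 95.1 CPM.

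In the vehicle libraries, ABCA3 was 1.87-fold higher in hyperoxia (log2 fold change 0.91, SE 0.19, edgeR quasi-likelihood test, Benjamini-Hochberg adjusted p = 0.00192, 2 against 2 libraries). CAV1 was 1.46-fold higher (log2 0.55, SE 0.16, edgeR adjusted p = 0.0186). These were 2 of the 4 markers that passed the filter on low counts, and both rose, where 17.5% of the 14957 genes tested were called in either direction, 8.68% higher and 8.81% lower. LPCAT1 differed by -0.08 on the log2 scale (95% interval -0.46 to 0.30, or 0.726 to 1.23-fold). The ABCA3 call was lost without normoxia vehicle replicate 1 (log2 0.66, edgeR adjusted p = 0.0798). The CAV1 call was lost without hyperoxia vehicle replicate 1 (0.39, adjusted p = 0.281), normoxia vehicle replicate 1 (0.61, 0.0628) or normoxia vehicle replicate 2 (0.43, 0.232), and in the fit of 14 libraries in 6 groups (0.55, 0.0501).

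In the untreated libraries the direction was the same. ABCA3 was 2.17-fold higher in hyperoxia (log2 1.12, SE 0.23, edgeR adjusted p = 0.00443) and CAV1 was 1.58-fold higher (log2 0.66, SE 0.17, adjusted p = 0.0140), from a fit of 14 libraries in which 15.2% of genes were called and 7.57% were called higher, and in which the median over all genes was -0.10. Without the 4 libraries with few genes at 1 count these values were 1.28 and 0.57, with 1 hyperoxia untreated library left. Without normoxia untreated replicate 1 both calls were lost (0.80, adjusted p = 0.111, for ABCA3 and 0.67, 0.0792, for CAV1). The CAV1 call was lost as well without hyperoxia untreated replicate 1 (0.56, adjusted p = 0.0608) or normoxia untreated replicate 2 (0.57, 0.117). With only the 4 untreated libraries in the fit, neither was called (adjusted p = 0.182 and 0.163).

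With ATRA in both arms, CAV1 was again higher in hyperoxia, 1.36-fold (log2 0.44, SE 0.13, edgeR adjusted p = 0.0171, 3 against 3 libraries), where 22.7% of genes were called, 11.4% higher and 11.3% lower. ABCA3 was not called. Its log2 difference was 0.41 (95% interval 0.09 to 0.74, edgeR adjusted p = 0.0637), although the 3 libraries of each group did not overlap, and it was called when genes with low counts were kept in the fit (0.40, adjusted p = 0.0466). Without the 4 libraries with few genes at 1 count the ABCA3 difference was 0.34 (adjusted p = 0.185). The CAV1 call was lost without normoxia ATRA replicate 1 (0.38, adjusted p = 0.0789), normoxia ATRA replicate 3 (0.39, 0.0763) or hyperoxia ATRA replicate 2 (0.28, 0.150). In the fit that left out those 4 libraries, the CAV1 difference was 0.53, with 1 hyperoxia ATRA library left. CAV1 was 1 of 606 genes, 4.05% of those tested in the fit of 10 libraries, that were called higher in all 3 oxygen comparisons.

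The CAV1 counts by library show where the groups meet. Hyperoxia gave 458 and 406 CPM untreated, 464 and 387 CPM with vehicle, and 287, 410 and 344 CPM with ATRA. Normoxia gave 284 and 263 CPM untreated, 310 and 272 CPM with vehicle, and 233, 288 and 243 CPM with ATRA. The groups overlapped through hyperoxia ATRA replicate 1, one of the 4 libraries with few genes at 1 count, which stood below 2 normoxia libraries, normoxia vehicle replicate 1 and normoxia ATRA replicate 2. The hyperoxia median was 406 CPM and the normoxia median 272 CPM. Neighbouring groups overlapped at every step of the order of means, from normoxia ATRA (255 ± 29 CPM, SD, n = 3) to hyperoxia untreated (432 ± 37.2, n = 2).

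**Figure D2:**
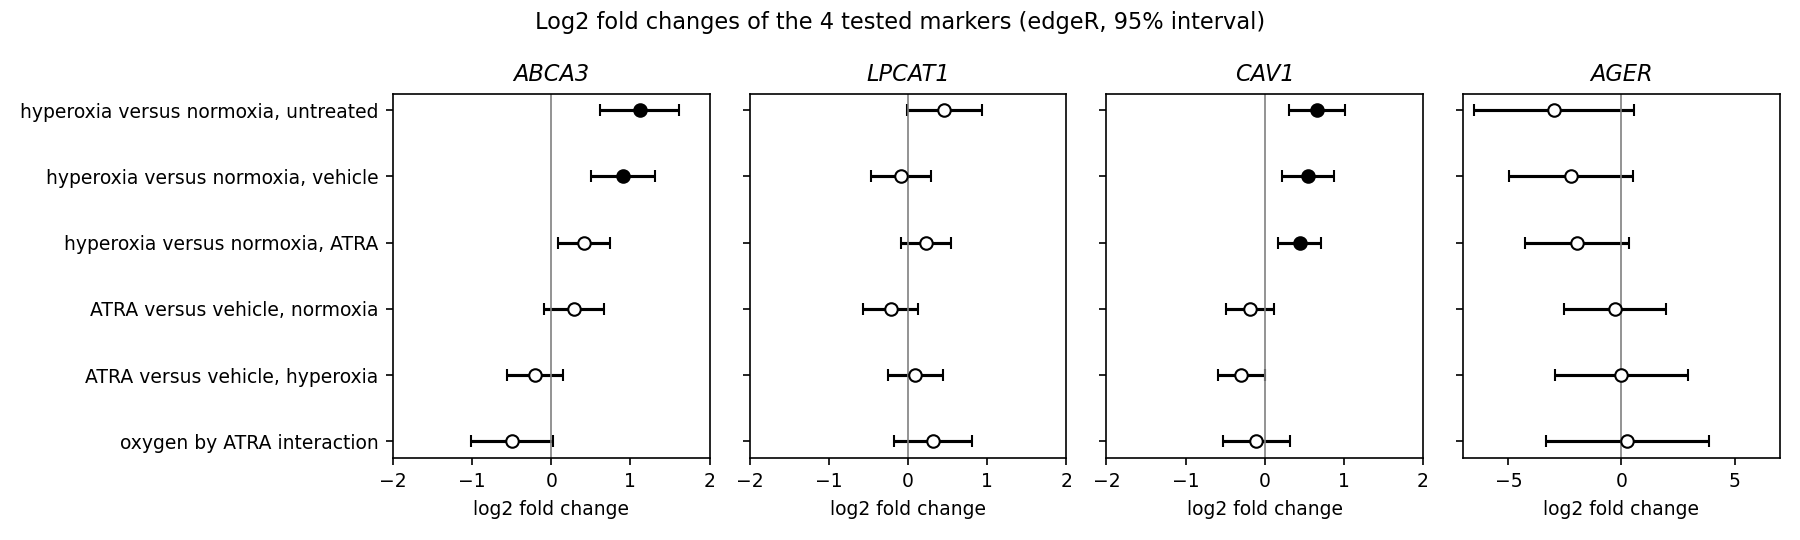
Log2 fold changes (horizontal axis) of the 4 tested markers in 6 comparisons, with 95% intervals from edgeR. Filled points have an adjusted p under 0.05. The filled points are ABCA3 in the untreated (1.12) and vehicle (0.91) oxygen comparisons and CAV1 in all 3 (0.66, 0.55 and 0.44), and the axis of AGER is wider than the others.

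LPCAT1 was the steady member. Its values lay between 51.3 and 69.3 CPM in 13 of the libraries and at 95.1 CPM in hyperoxia untreated replicate 1, the library with the fewest genes at 1 count. The other hyperoxia untreated library had 56.0 CPM. Group means of the 5 groups other than that one were between 53.5 ± 2.92 CPM (SD, n = 3, normoxia ATRA) and 62.9 ± 5.64 CPM (n = 3, hyperoxia ATRA). In the untreated comparison LPCAT1 differed by 0.46 on the log2 scale (edgeR adjusted p = 0.175). Without hyperoxia untreated replicate 2 it was called (0.73, adjusted p = 0.00741), and without the 4 libraries with few genes at 1 count the difference was 0.02 (adjusted p = 0.963). With ATRA in both arms the oxygen difference was 0.23 (95% interval -0.08 to 0.54).

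AGER had its lower values in hyperoxia, at very few counts. The 7 normoxia libraries had 5 and 16 counts untreated, 6 and 22 with vehicle, and 6, 17 and 3 with ATRA. The 7 hyperoxia libraries had 0 and 2 counts untreated, 2 and 4 with vehicle, and 3, 0 and 5 with ATRA. In all, 16 of the counts fell in hyperoxia and 75 in normoxia, and the groups overlapped. The log2 differences were -2.23 with vehicle, -1.97 with ATRA and -2.96 untreated, with SEs of 1.32, 1.11 and 1.67, and none was called (edgeR adjusted p = 0.288, 0.217 and 0.248). Both of the libraries at 0 were among the 4 with few genes at 1 count. Without these 4 the ATRA difference was 0.0086, with 1 hyperoxia ATRA library left.

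**Figure D3:**
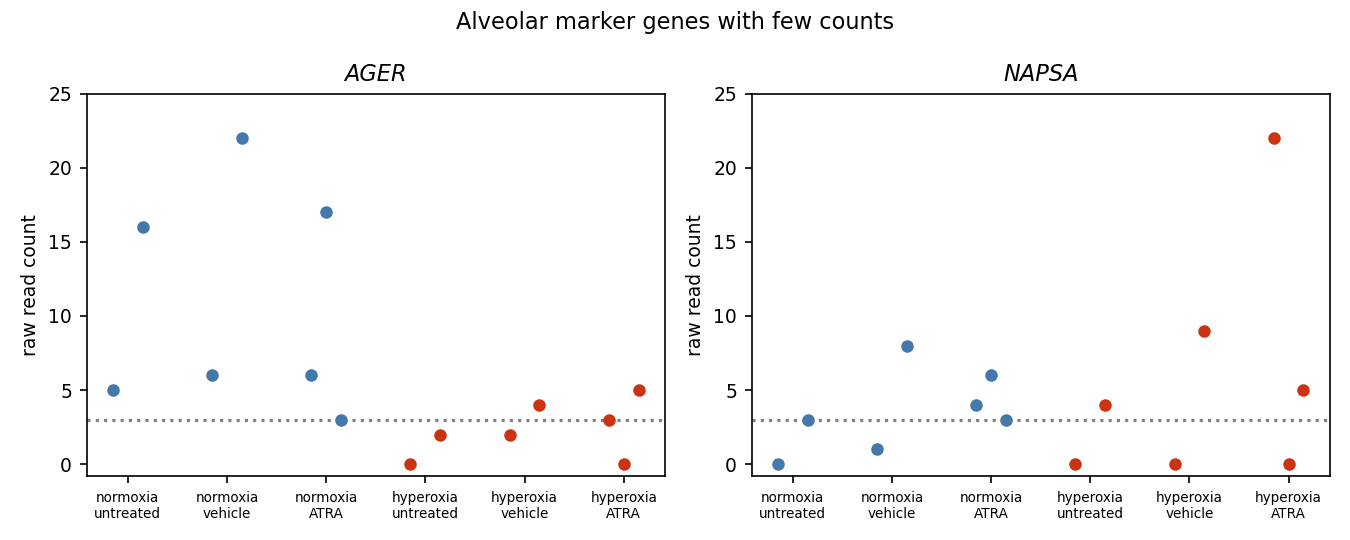
Raw read counts (vertical axis) of AGER and NAPSA in each of 14 libraries by group, blue for normoxia and red for hyperoxia. The dotted line is the limit of 3 counts that a count of 0 allows. AGER has 3 to 22 counts in normoxia and 0 to 5 in hyperoxia, and NAPSA reaches 22 counts in 1 hyperoxia ATRA library.

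NAPSA stayed below the filter and was not tested in the fits above. It had 40 counts in hyperoxia and 25 in normoxia, and 22 of the 40 came from hyperoxia ATRA replicate 1, another library with few genes at 1 count. The other 13 libraries held 0 to 9. NAPSB, a related gene, had 46 counts in all, 70.8% as many as NAPSA, and LOC105372437, which overlaps NAPSA, had 13.8% as many. How reads were split among them was not tested. The library kit keeps the strand, but the strand setting of the counting is not given in the sources used here.

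ATRA was then compared with vehicle at each oxygen level, which asks whether the retinoid moves alveolar markers. No member was called, in hyperoxia (2.21% of all genes called, 1.52% higher) or in normoxia (1.25% called, 0.816% higher), by edgeR or by DESeq2, and at an unadjusted p under 0.05 edgeR gave 0 of 4 in each and DESeq2 gave 1 of 4 in hyperoxia and 0 of 4 in normoxia. In hyperoxia ABCA3 differed by -0.20 on the log2 scale (95% interval -0.56 to 0.15) and CAV1 by -0.30 (-0.59 to 0.00, edgeR adjusted p = 0.373). For ABCA3 the 3 ATRA libraries (100.1 to 113 CPM) lay below both vehicle libraries (118 and 127 CPM). In normoxia ABCA3 differed by 0.29 (-0.09 to 0.66), CAV1 by -0.19 (-0.49 to 0.11) and LPCAT1 by -0.22 (-0.57 to 0.13). Leaving out the 4 libraries gave -0.12 for ABCA3 and -0.30 for CAV1 in hyperoxia, and 0.43 (adjusted p = 0.144) and -0.28 in normoxia, none of them called. The intervals for ABCA3, CAV1 and LPCAT1 at both oxygen levels all lay between 0.663 and 1.58-fold, while that for AGER in hyperoxia (-2.96 to 2.92) spans 0.129 to 7.58-fold.

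The difference between the oxygen effect with ATRA and with vehicle was tested by an interaction term, in which 0.14% of genes were called. No member was called by edgeR or DESeq2, and none of the 4 had an unadjusted p under 0.05 by either. The ABCA3 term was -0.49 (SE 0.25, 95% interval -1.01 to 0.03, edgeR adjusted p = 0.713), the CAV1 term -0.11 (-0.53 to 0.32) and the LPCAT1 term 0.31 (-0.18 to 0.80). The oxygen effect on ABCA3 was thus not called different between the treatments, also without the 4 libraries (-0.55, adjusted p = 0.532).

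Other genes of the same cell types moved in both directions with oxygen. Of 24 further type I genes, 20 were tested with vehicle. In hyperoxia 2 of them rose and 4 fell, where 8.68% of all genes were called higher and 8.81% lower, with a median of -0.25 on the log2 scale against 0.01 over all genes. EMP2, a tetraspan membrane protein of type I cells, fell from 72.2 ± 4.76 to 23.9 ± 0.421 CPM (SD, n = 2 each, log2 -1.60, edgeR adjusted p = 5.42e-06). SUSD2, a membrane protein, fell from 21.1 ± 3.78 to 3.53 ± 0.252 CPM (log2 -2.58, adjusted p = 0.00238). AHNAK, a very large scaffold protein under the membrane, rose from 918 ± 61.5 to 2196 ± 74 CPM (log2 1.26, adjusted p = 1.21e-06). All 3 were also called in the same direction with ATRA, at -1.54 for EMP2, -2.97 for SUSD2 and 0.63 for AHNAK, where 3 of the 20 rose and 6 fell, against 11.4% and 11.3% of all genes. Without the 4 libraries these ATRA values were -1.61 (adjusted p = 3.31e-06), -2.03 (0.00119) and 0.86 (4.79e-05). In the untreated libraries EMP2 (-1.64, adjusted p = 4.90e-05) and AHNAK (1.11, 0.000352) were called as well, together with LMO7, a junction and actin adaptor, which fell by 1.18 (0.00154). Without the 4 libraries these became -1.77 (adjusted p = 7.68e-06), 0.91 (0.000654) and -1.08 (0.000289). With only the 4 untreated libraries in the fit none of the 3 was called (adjusted p = 0.0791, 0.106 and 0.0984).

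Among the other caveola genes, CAV2 had the direction of CAV1 with oxygen, in the vehicle and ATRA comparisons, and CAVIN2 the opposite one. CAV2, the partner of caveolin-1, was called higher in hyperoxia with ATRA (log2 0.55, edgeR adjusted p = 0.00957). Without normoxia ATRA replicate 1 that call was lost (adjusted p = 0.0621). Without the 4 libraries the difference was 0.56, with 1 hyperoxia ATRA library left. With vehicle CAV2 differed by 0.34 and was not called (adjusted p = 0.219). CAVIN1, which coats caveolae, was not called in an oxygen comparison and differed by less than its SD with vehicle (616 ± 39.7 CPM in normoxia and 596 ± 62.3 CPM in hyperoxia, SD, n = 2 each). CAVIN2, which bends the membrane, was lower in hyperoxia with vehicle (log2 -0.57, adjusted p = 0.0172) and with ATRA (-0.49, 0.00651). The first of these calls was lost without any 1 of the 4 vehicle libraries. The call with ATRA was lost in the fit of 14 libraries. Without the 4 libraries with few genes at 1 count its value was -0.58, with 1 hyperoxia ATRA library left. CAVIN2 was also higher with ATRA than with vehicle, from 58.8 ± 2.88 to 136 ± 3.08 CPM in normoxia (log2 1.22, adjusted p = 5.80e-05) and from 39.6 ± 1.34 to 97.4 ± 5.95 CPM in hyperoxia (log2 1.30, 1.93e-05), and these values were 1.21 (6.65e-07) and 1.20 (5.83e-05) without the 4 libraries. Of the 20 further type I genes tested, ATRA raised 3 in hyperoxia and lowered 1, where 2.21% of all genes were called and 1.52% higher. In normoxia it raised 2 and lowered 0 (1.25% called). The gene lowered was AHNAK (log2 -0.75, edgeR adjusted p = 0.00129), at -0.60 without the 4 libraries, with 1 hyperoxia ATRA library left. VEGFA rose in hyperoxia (1.06, 0.0309), a call lost with only the groups compared (0.0933), and was 0.63 without the 4 libraries. GPRC5A, a receptor of lung epithelium first known as induced by retinoic acid, rose with ATRA like CAVIN2, from 433 ± 15 to 738 ± 43.4 CPM in normoxia (log2 0.77, adjusted p = 0.000456) and from 568 ± 16.7 to 845 ± 24.3 CPM in hyperoxia (log2 0.57, 0.00566). The hyperoxia call of GPRC5A was lost without either of the hyperoxia vehicle libraries (highest adjusted p = 0.183). In the fit without the 4 libraries the values were 0.75 (8.22e-05) and 0.54 (0.0342). GPRC5A was also called higher in hyperoxia, with vehicle (log2 0.39, adjusted p = 0.0276) and untreated (0.68, 0.000811; without the 4 libraries 0.70, 0.00201). The vehicle call was lost without any 1 of the 4 vehicle libraries (highest adjusted p = 0.247), and the untreated call with only the 4 untreated libraries in the fit (0.147).

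**Figure D4:**
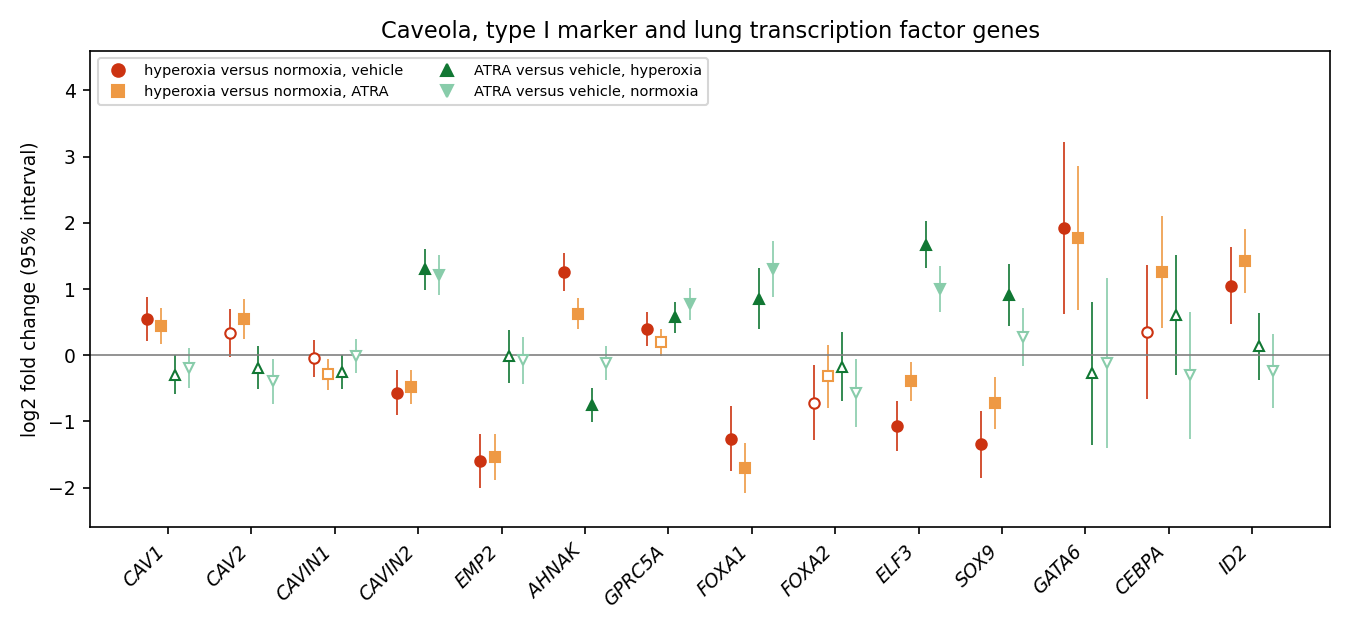
Log2 fold changes (vertical axis) with 95% intervals from edgeR for CAV1, 3 further caveola genes, 3 further type I genes and 7 lung transcription factors. The comparisons are oxygen with vehicle, oxygen with ATRA, and ATRA at each oxygen level, and the untreated comparison is not drawn. Filled symbols have an adjusted p under 0.05. CAVIN2 is below 0 with oxygen (-0.57 and -0.49) and above 0 with ATRA (1.30 and 1.22), and CAV1 is above 0 with oxygen (0.55 and 0.44).

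Of 20 further type II genes, 14 were tested with vehicle, and 1 rose and 2 fell in hyperoxia, where 17.5% of all genes were called. DRAM1, a lysosomal membrane protein, rose from 40.5 ± 2.20 to 71.3 ± 8.67 CPM (log2 0.81, edgeR adjusted p = 0.00474), and it rose with ATRA (1.27, 3.72e-06) and untreated (1.02, 0.00273). The vehicle call of DRAM1 was lost without hyperoxia vehicle replicate 1 or normoxia vehicle replicate 1 (highest adjusted p = 0.101), and the untreated call without normoxia untreated replicate 1 (0.0725) or with only the 4 untreated libraries in the fit (0.175). Leaving out the 4 libraries with few genes at 1 count gave 0.98 (0.000235) with ATRA and 1.08 (0.000689) untreated. MALL, a raft protein, fell with vehicle from 73.5 ± 14.5 to 34.5 ± 5.66 CPM (log2 -1.09, adjusted p = 0.00039), and with ATRA by 0.57 on the log2 scale (0.0115), a call lost without the 4 libraries (-0.52, 0.0696) and in the fit of 14 libraries. The untreated libraries gave 0.07 for MALL (0.884), and the vehicle call was lost with vehicle and untreated libraries as 1 control group. With ATRA in both arms 3 of the 14 rose and 1 fell (22.7% of all genes called), and untreated 2 rose (15.2%). PCYT1A and CHPT1, enzymes of phosphatidylcholine synthesis like LPCAT1, were not called in any comparison. In hyperoxia ATRA raised 2 of the 14 (1.52% of all genes called higher), LRP5 (log2 0.71, adjusted p = 0.0371, and 0.71, 0.0343, without the 4 libraries) and CTSH, a cathepsin that processes surfactant proteins (1.07, 0.0432), of which CTSH was not called without the 4 libraries with few genes at 1 count (0.92, 0.175). Both of these calls were lost without either of the hyperoxia vehicle libraries, in further leave-one-out fits, and in the fit of 14 libraries. The LRP5 call was lost as well with vehicle and untreated libraries as 1 control group. In hyperoxia LRP5 averaged 65.7 ± 8.51 CPM with vehicle, 108 ± 3.87 CPM with ATRA and 119 ± 26.3 CPM untreated (SD, n = 2, 3 and 2). LRP5 was also the other gene that fell in hyperoxia with vehicle (log2 -0.93, edgeR adjusted p = 0.0015), a call lost with the same control group.

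Among 18 lung transcription factors, 15 were tested with vehicle, and 3 rose and 4 fell in hyperoxia, where 17.5% of all genes were called. FOXA1, a pioneer factor of lung epithelium, fell from 31.1 ± 1.29 to 12.9 ± 0.0712 CPM (SD, n = 2 each, log2 -1.26, edgeR adjusted p = 0.000553), and SOX9, a factor of the distal lung bud, from 51.2 ± 2.37 to 20.1 ± 2.26 CPM (log2 -1.35, 0.000364). ELF3, an epithelial ETS factor, fell from 180 ± 38.9 to 85.9 ± 18.1 CPM (log2 -1.07, 0.000224). GATA6 was called higher with vehicle (log2 1.92, 0.0362), with ATRA (1.77, 0.0171) and untreated (3.20, 0.00898). Without the 4 libraries with few genes at 1 count the ATRA and untreated values of GATA6 were 1.34 and 2.93, with 1 hyperoxia library left in each. FOXP1 was called higher with vehicle (1.12, 0.00563) and untreated (1.20, 0.0473), and was not called with ATRA (-0.06, 0.876). The untreated call of FOXP1 was kept in 1 of 14 leave-one-out fits, and its value was 0.25 without the 4 libraries. The vehicle calls of both and the ATRA call of GATA6 were lost in the fit of 14 libraries. With only the groups compared, the untreated call and the ATRA call (edgeR adjusted p = 0.0535) of GATA6 were lost. The vehicle call of GATA6 was lost without any 1 of the 4 vehicle libraries. CEBPA was called higher in hyperoxia with ATRA (log2 1.26, edgeR adjusted p = 0.0284) and untreated (2.10, 0.0325), and was not called with vehicle (0.35, 0.707). Both CEBPA calls were lost with only the groups compared, and the values were 0.57 and 1.36 without the 4 libraries. ID2, a marker of distal tip progenitors, rose from 19.3 ± 1.27 to 40.3 ± 4.52 CPM with vehicle (log2 1.05, 0.0111) and was not called untreated (0.86, 0.0774). The ID2 call was lost without hyperoxia vehicle replicate 1, normoxia vehicle replicate 1 or normoxia vehicle replicate 2 (highest adjusted p = 0.128), and was made with ATRA in both arms (1.42, 0.000132, and 1.47, 0.000269, without the 4 libraries). With ATRA 3 of the 15 factors were called higher at each oxygen level, where 1.52% of all genes were in hyperoxia and 0.816% in normoxia. ATRA raised FOXA1 (log2 1.30, adjusted p = 0.000855) and ELF3 (1.00, 0.00166) in normoxia and ELF3 in hyperoxia (1.67, 5.56e-06). The normoxia calls were lost without normoxia vehicle replicate 2 for FOXA1 (adjusted p = 0.0567) and without normoxia vehicle replicate 1 for ELF3 (0.112). Leaving out the 4 libraries, these 3 values were 1.20 (8.22e-05), 1.05 (8.80e-06) and 1.58 (4.11e-07). The other calls were FOXP1, a forkhead factor, in normoxia (1.13, 0.0258, kept in 4 of 10 leave-one-out fits, and 1.07, 0.00738, without the 4 libraries), and in hyperoxia FOXA1 (0.85, 0.0437, kept in 1 of 10) and SOX9 (0.91, 0.0353, kept in 3 of 10). Without the 4 libraries the hyperoxia values of FOXA1 and SOX9 were 0.87 (0.109) and 0.63 (0.245), not called.

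Markers of other cells moved with oxygen too, and their part in the results above was not tested. Among airway markers, SCGB1A1, SCGB3A1, SCGB3A2, KRT5 and CALCA were at 0 in all libraries, and the summed level of the airway list was 854 to 1512 CPM in normoxia and 493 to 791 CPM in hyperoxia, nearly all of it MUC5AC, MUC5B and TUBB4B. Of 12 markers of endothelial, stromal and blood cells, VWF and CD3E were at 0 in all libraries, and the summed level was 35.5 to 61.7 CPM in normoxia and 111 to 165 CPM in hyperoxia. That increase lay in CD68, a lysosomal protein of macrophages that other cells also make (log2 1.63 with vehicle, edgeR adjusted p = 2.25e-05), and ACTA2, smooth muscle actin (1.92, 0.000142), while PTPRC, the pan-leukocyte marker, had 1 count in all. Of the 4 tested with vehicle, 2 rose and 1 fell, where 8.68% of genes were called higher and 8.81% lower. COL1A1, a collagen chain with 196 counts, fell with vehicle (log2 -3.30, edgeR adjusted p = 0.0202) and untreated (-7.74, 0.00569). The first call was lost with 14 libraries, the second with only the groups compared. CDH5 (37 counts) was called lower in hyperoxia with ATRA (-6.75, 0.0148) but not by DESeq2. Without the 4 libraries, untreated COL1A1 was at -7.755 and CDH5 at -7.071.

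Finally, the genes whose 6 group means followed those of the called members most closely were found among 15338 tested genes, as a description. The measure was the root mean square difference between centred log2 CPM means. For ABCA3 they were RFFL (0.0443) and SPTBN1 (0.0489), against a median of 0.594 over all genes. For CAV1 they were ZZZ3 (0.0221) and ORMDL1 (0.0398), against a median of 0.485.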

How the data were processed

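RNA was prepared from A549 cells and sequenced as stranded libraries. Per the submitters' processing notes, the authors used Trimmomatic 0.38 for trimming, HISAT2 for alignment to hg38 and HTSeq for counting, and the deposited values are raw read counts per gene symbol, not normalized. The annotation release and the strand setting of the counting are not given in the sources used here. Between 48.6% and 55.3% of reads were assigned to no feature and left out. Of 15 libraries, 14 were grouped by their labels.

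The test was edgeR 4.0.16, run in R 4.3.3 (TMM normalization, filterByExpr with a minimum count of 10 and a minimum total of 15, quasi-likelihood test, Benjamini-Hochberg adjustment over all genes tested, called under 0.05). The vehicle and ATRA comparisons came from 10 libraries in 4 groups (14957 genes), the untreated comparison and all CPM values from 14 libraries in 6 groups (15339 genes). Levels per kilobase used GENCODE exon lengths. The procedure was tested on simulated data. Alternatives were DESeq2 1.42.0, RLE size factors, no filter, other sets of libraries, and leaving out each library, where a lone library left in a group was assumed to vary like the other groups. Leaving out 4 libraries together was chosen after seeing the data, and it left 1 library in hyperoxia ATRA and 1 in hyperoxia untreated. Named genes are the members, called or silent genes of the marker lists, overlapping genes, and the 2 most alike genes per called member. Not every gene that this rule covers is named in the text. CAVIN1, PCYT1A, CHPT1, FOXA2, LAMP3 and PTPRC were chosen after their values were seen. The members and lists were chosen with earlier results of these data known. Plots were drawn with matplotlib 3.10.9.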

Additional observations from a re-analysis of the deposited data

Results flagged for a closer look

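The library whose labels contradict each other (its title names hyperoxia, while its treatment label names another procedure) had 125 CPM of ABCA3 and 366 CPM of CAV1, as CPM of the gene total without TMM. On the same scale the highest normoxia libraries had 87.1 and 314 CPM, so both values were above every normoxia library and within the hyperoxia range (99 to 145 CPM and 284 to 467 CPM). It had 10 AGER counts (2.26 CPM), above the highest hyperoxia library, and 1 AQP5 count.

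KRT19, a keratin of the transitional list, had a different oxygen effect with ATRA than with vehicle. The interaction term was 1.37 on the log2 scale (SE 0.28, edgeR adjusted p = 0.0497), which stayed called in 2 of 10 fits that left out 1 library (highest adjusted p = 0.408), and was 0.90 (0.149) without the 4 libraries with few genes at 1 count. KRT19 averaged 95.4 ± 0.257 CPM in normoxia vehicle, 32.1 ± 2.96 CPM in hyperoxia vehicle (SD, n = 2 each), 73.3 ± 12.8 CPM in normoxia ATRA and 63.2 ± 14.1 CPM in hyperoxia ATRA (n = 3 each).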

How the results depend on the processing

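The labels give no shared replicate numbers. No paired analysis was possible because replicates were numbered in the order of the records, which pairs nothing. The 4 tested members were refitted under each alternative. Of their values, 366 kept direction and side of the threshold, 14 lost their call, 2 gained one and 17 changed sign, all of the last uncalled, and the cause was not tested. Depth limits AGER, NAPSA and the 5 genes with at most 3 counts per library.

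For hyperoxia against normoxia with vehicle, the number of genes called was 2616 and became 4665 with only the groups compared, 1420 with 14 libraries in 6 groups and 4500 without the 4 libraries with few genes at 1 count, with 1386 to 3175 over the fits that left out 1 library. Members called went from 2 to 1 with 14 libraries, and ranged from 0 to 2. LPCAT1 changed to 0.19 with vehicle and untreated as 1 control group. With ATRA in both arms, 3391 genes became 1975 with 14 libraries, and the 1 member called became 2 with no filter and 0 to 1 over the fits that left out 1 library. AGER was 0.0086 without the 4 libraries. Untreated, 2324 genes became 58 with only the groups compared, and 969 to 7364 over the fits that left out 1 library (7364 without hyperoxia untreated replicate 2). Members called were 0 with only the groups compared, and 0 to 3 over those fits.

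For ATRA in hyperoxia, 331 genes became 522 with no filter, 116 with 14 libraries, 182 with vehicle and untreated as 1 control group, 203 without the 4 libraries, and 83 to 449 with 1 library left out. AGER was 0.37 with 1 control group, 0.88 without the 4 libraries and -0.84 to 0.39 with 1 library left out, and LPCAT1 was -0.11 with 1 control group and -0.0013 to 0.17 with 1 library left out. For ATRA in normoxia, 187 genes became 300.0 with no filter, 70.0 with 14 libraries, 432 without the 4 libraries and 56 to 267 with 1 library left out, where AGER ran from -0.63 to 0.27. For the interaction, 21 genes became 90.0 by DESeq2, 91 with no filter, 4 with 14 libraries, 5 with 1 control group and 4 to 28 with 1 library left out, where AGER ran from -0.56 to 0.67 and CAV1 from -0.26 to 0.028.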

Other observations

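Of 13 genes of the state between type II and type I cells, 11 were tested with vehicle, and 5 rose and 3 fell in hyperoxia, where 17.5% of all genes were called. CDKN1A, the cell cycle inhibitor p21, rose from 102 ± 8.42 to 1034 ± 47.6 CPM (SD, n = 2 each, log2 3.34, edgeR adjusted p = 3.34e-12), and GDF15, a stress cytokine, from 120 ± 9.42 to 403 ± 33.7 CPM (1.74, 3.81e-07). SFN, a 14-3-3 protein, rose by 0.82 (0.0033), a call lost without normoxia vehicle replicate 2 (adjusted p = 0.0751). The simple epithelial keratins KRT8 (log2 -1.73, 2.73e-07), KRT18 (-2.13, 2.17e-08) and KRT19 (-1.58, 1.84e-05) fell. KRT17 had 4 counts in all 14 libraries.

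Of 5 epithelial identity genes, 4 were tested, and 3 fell in hyperoxia with vehicle (8.81% of all genes called lower). Besides KRT8 and KRT18 this was CDH1, E-cadherin, which went from 47.9 ± 8.26 to 10.6 ± 1.80 CPM (SD, n = 2 each, log2 -2.17, edgeR adjusted p = 1.64e-05). In hyperoxia KRT8 and KRT18 were higher with ATRA than with vehicle (log2 1.01 and 0.97, edgeR adjusted p = 0.000706 and 0.000937). Without the 4 libraries with few genes at 1 count the values were 0.72 and 0.64, with 1 hyperoxia ATRA library left. The same comparison of CDH1 gave 1.28 (0.0153) and, without these libraries, 0.78 (0.227). The CDH1 call was also lost without hyperoxia ATRA replicate 1 or either hyperoxia vehicle library (highest adjusted p = 0.292).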
